A study of Macaca fascicularis with 23 samples.

Results

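The lowest dose of ciprofibrate in a dose series was set against vehicle after 15 days, in the liver of cynomolgus monkeys (Macaca fascicularis). The animals are the 4 whose sample titles name ciprofibrate, a dose of 3 mg/kg/day and day 15, and the 3 titled as vehicle controls of the same day, 7 of the 23 animals measured. The other groups used below are the 15-day animals at 30, 150 and 400 mg/kg/day, 4 each, while 4-day animals, 2 at 400 mg/kg/day and 2 on vehicle, enter only the estimate of spread. Each animal had its own array, so the spread between arrays includes that between animals. The route of dosing, the make-up of the vehicle, and the age and sex of the animals are not given in the sources used here.

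RNA from frozen tissue of the right lateral lobe was hybridised to an array of human probes, and a value is the intensity of a probe set, a group of probes for 1 transcript. Monkey sequence can lower the signal of a human probe, so intensities are compared between animals within a probe set and never between probe sets. All 12558 probe sets other than controls belong to the comparison, of which 7535 passed a minimum on their mean over all arrays, equal to an intensity of 39.7, and were tested. Differences are 3 mg/kg/day minus vehicle on the scale of log2(intensity + 16), which understates the change of dim probe sets. They are given with the standard error (SE) of a limma fit to all 23 arrays. A probe set was called where its p, adjusted by the Benjamini-Hochberg method over all 7535, was under 0.05.

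Hepatocyte markers were read first, to compare the groups. No other tissue was set beside them, so they do not test the tissue label. All 10 of the listed markers were measured, their summed intensity was 56012 to 80702 in 3 mg/kg/day animals and 61570 to 63966 in vehicle animals, and their median difference was 0.19. With 1 animal left out that median was 0.03 without 3 mg/kg/day replicate 1 to 0.24 without 3 mg/kg/day replicate 4, and such ranges stand in parentheses after the medians below. ALB, the serum albumin gene, differed by 0.01 ± 0.23, SERPINA1, alpha-1-antitrypsin, by 0.24 ± 0.16 and ASGR2, a receptor of the hepatocyte surface, by 0.27 ± 0.16. Quality measures of the arrays were also compared. The ratio of the 5' to the 3' probe set of ACTB was 0.763 ± 0.182 (SD, n = 4) at 3 mg/kg/day and 0.574 ± 0.033 (SD, n = 3) on vehicle (exact permutation p = 0.171, two-sided, 0.343 after adjustment over 3 measures), and the groups overlapped. That of GAPDH was 1.32 ± 0.19 (SD, n = 4) at 3 mg/kg/day and 1.06 ± 0.30 (SD, n = 3) on vehicle (exact permutation p = 0.229). With 35 ways to divide 7 animals, the smallest such p is 0.0571. The mean correlation of an array with the others of its group was 0.873 to 0.883 at 3 mg/kg/day and 0.870 to 0.890 on vehicle.

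Ciprofibrate is a fibrate, a class of lipid-lowering drugs that activate the nuclear receptor PPAR-alpha. PPAR-alpha binds DNA as a pair with RXR and, in liver, switches on genes that take up fatty acids and break them down in mitochondria and peroxisomes. In rats and mice strong activation enlarges the liver and multiplies its peroxisomes, a response known to be much weaker in primates. The comparison of the lowest dose with vehicle asks which part of this program, if any, is measurable where the dose is smallest.

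At 3 mg/kg/day no probe set was called against vehicle: 0 of 7535 (0%), with a smallest adjusted p of 0.0506. At an unadjusted p under 0.05 there were 757, of which 379 were higher at 3 mg/kg/day (5.03%) and 378 lower (5.02%). The median difference over all probe sets was -0.02, with 93 above 1 and 160 below -1. The intensities of the groups did not overlap for 671 probe sets (8.91%), 305 higher (4.05%) and 366 lower (4.86%). The 3 vehicle animals also served as controls of the other doses, where 1 probe set was called at 30 mg/kg/day (0.0133%), 51 at 150 mg/kg/day (0.677%) and 161 at 400 mg/kg/day (2.14%).

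**Figure D1:**
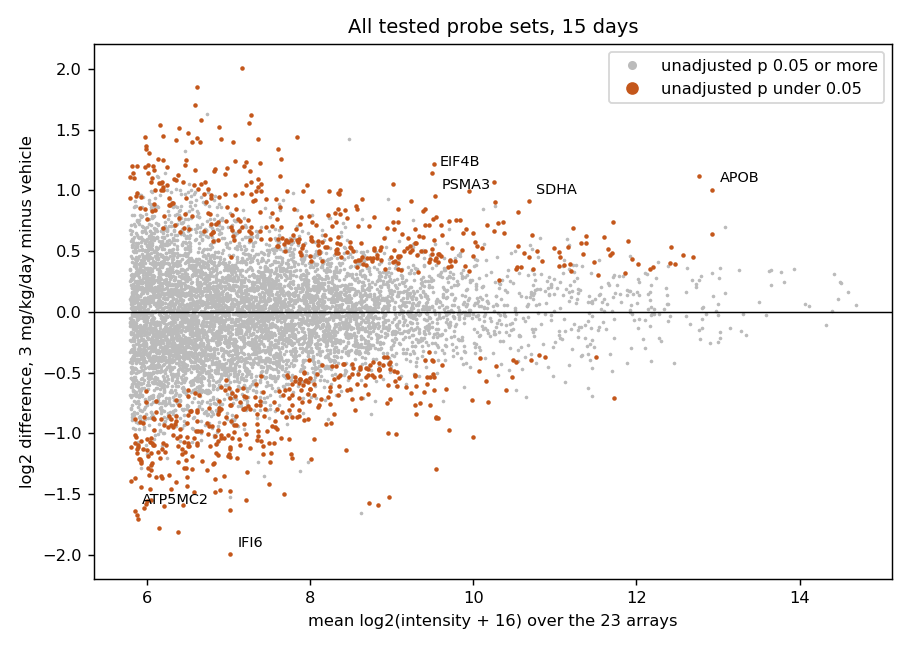
Each point is 1 of the 7535 tested probe sets, with its mean log2(intensity + 16) over the 23 arrays on the x axis and its log2 difference, 3 mg/kg/day minus vehicle at 15 days, on the y axis. The 757 with an unadjusted p under 0.05 are coloured and lie on both sides of 0 (379 higher and 378 lower), and 6 genes are named.

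The count of 0 depended on the setting. Testing only probe sets above the 60th percentile of mean intensity gave 4 calls, for PSMA3, SDHA, EIF4B and VDAC1, a channel of the outer mitochondrial membrane. Weighting arrays by their quality gave 3, for PSMA3, SDHA and EIF4B. Leaving out vehicle replicate 1 gave 2 (NME4 and EIF4B), and leaving out 3 mg/kg/day replicate 3 gave 2 (PSMA3, adjusted p = 0.0154, and SDHA, adjusted p = 0.00426). All of these were higher at 3 mg/kg/day. VDAC1 was named for this count, after its values were seen.

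Nearest the threshold on the higher side, PSMA3, a subunit of the proteasome core, had intensities of 1033, 852, 719.9 and 1108 in 3 mg/kg/day animals, against 457, 515 and 429.9 in vehicle animals. Every 3 mg/kg/day animal exceeded every vehicle animal, and the difference was 0.95 ± 0.17 (adjusted p = 0.0506). SDHA, the flavoprotein subunit of succinate dehydrogenase in the respiratory chain and the citric acid cycle, had 2548, 2125, 1608 and 2838 at 3 mg/kg/day and 1249, 1228 and 1073 on vehicle. These groups were also apart, by 0.91 ± 0.16 (adjusted p = 0.0506). For EIF4B, a translation initiation factor, the values were 1329, 1074, 1007 and 1086 at 3 mg/kg/day and 666, 336 and 552 on vehicle. It differed by 1.14 ± 0.22 without overlap (adjusted p = 0.0527). Over 18 alternative settings the adjusted p ranged from 0.0154 to 0.383 for PSMA3, 0.00426 to 0.453 for SDHA and 0.0376 to 0.383 for EIF4B, while no difference was under 0.79.

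ACAA1, the thiolase that ends each turn of peroxisomal fatty acid oxidation and a known PPAR-alpha target, had 1853, 1895, 1306 and 1602 at 3 mg/kg/day, against 972, 897 and 901 on vehicle. The lowest 3 mg/kg/day animal was above the highest vehicle animal, and the difference was 0.82 ± 0.17 (adjusted p = 0.112). A different ACAA1 probe set gave 0.99. SNRPG, a core protein of the splicing machinery, differed by 0.99 ± 0.21, YWHAE, a 14-3-3 adaptor protein, by 1.40 ± 0.30, and ATXN10 by 0.84 ± 0.20, all without overlap, though a different ATXN10 probe set gave 0.44. NME4, a nucleoside diphosphate kinase of mitochondria, had 219, 274, 168 and 329 at 3 mg/kg/day and 183, 44.7 and 56.7 on vehicle. Its groups overlapped through vehicle replicate 1, and without that animal the difference of 1.42 ± 0.36 became 1.95 (adjusted p = 0.0376).

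On the lower side JAG1, a ligand of Notch receptors, had 388, 362, 463 and 318 at 3 mg/kg/day, against 658, 586 and 706 on vehicle. All 4 animals lay below the vehicle animals, with a difference of -0.75 ± 0.17 (adjusted p = 0.16), and a different JAG1 probe set gave -0.23. HMGN4, a nucleosome-binding protein, had 145, 90.1, 156 and 104 at 3 mg/kg/day and 235, 226 and 353 on vehicle, a difference of -1.04 ± 0.26 without overlap. PCF11, which takes part in cleavage of transcript 3' ends, differed by -0.80 ± 0.22 without overlap and IL23A, a cytokine subunit, by -0.67 ± 0.18 with overlap. For 4 genes on this side a different probe set disagreed. CRHR2, a receptor for corticotropin-releasing peptides, differed by -1.01 ± 0.25 and -0.06, PRELID3A by -0.72 ± 0.17 and 0.23, the zinc finger protein ZFR by -0.61 ± 0.16 and 0.34, and VAPB, a membrane protein of the endoplasmic reticulum, by -1.50 ± 0.40, -0.17 and 0.18.

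**Figure D2:**
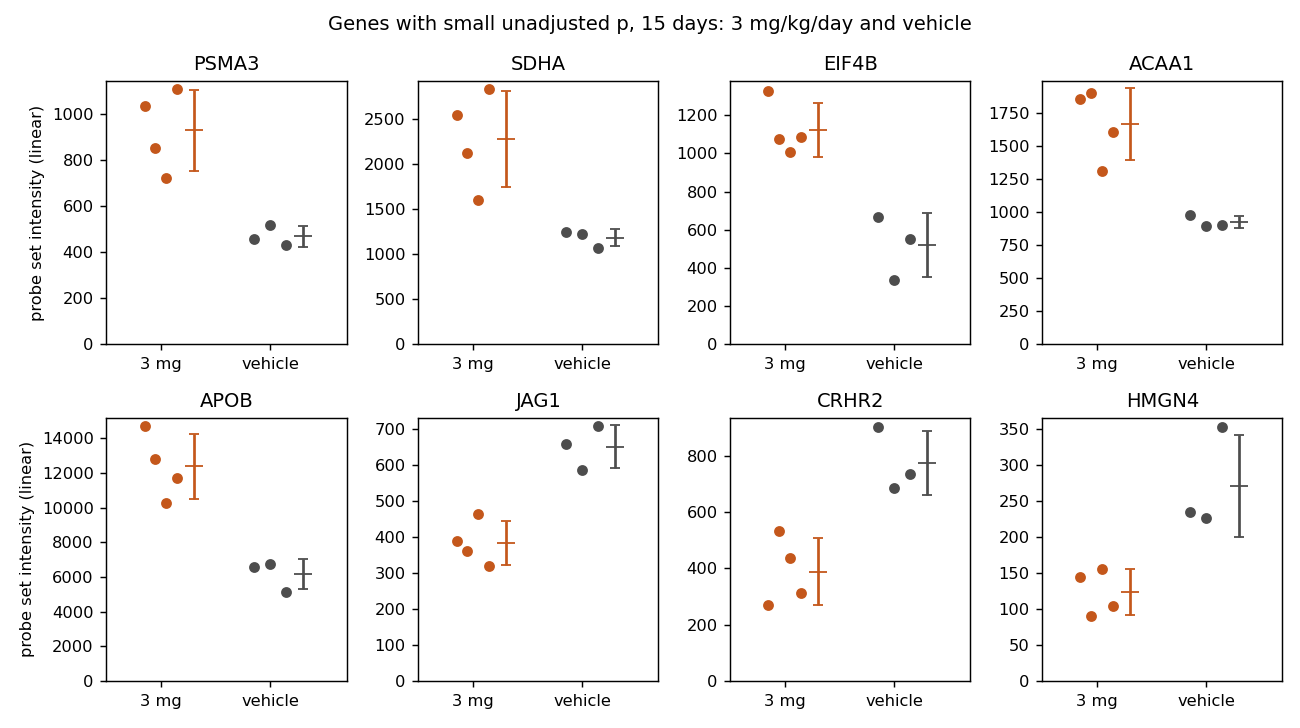
Linear probe set intensity of 8 genes in each 3 mg/kg/day animal (left) and each vehicle animal (right) at 15 days, with the group mean and SD beside the points. PSMA3, SDHA, EIF4B, ACAA1 and APOB are higher and JAG1, CRHR2 and HMGN4 lower at 3 mg/kg/day without overlap, and none of the 8 was called.

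The list of PPAR-alpha and its known targets was read next, beside the 5462 genes represented by a probe set. Of its 18 measured genes, of 30 listed, 11 were higher and 7 lower at 3 mg/kg/day, with a median of 0.17 against -0.01 over all genes. None was called. At an unadjusted p under 0.05, 4 were higher and 0 lower (22.2% and 0%), where the shares over all genes were 4.91% and 5.05%. These were ACAA1, HADHA, PPARA and ACADVL. The same shares over all genes apply to the counts at that p in every list below. The median was 0.04 with vehicle replicate 1 left out and 0.31 with either vehicle replicate 3 or 3 mg/kg/day replicate 3 left out, and the number higher at that p ranged from 1, without vehicle replicate 2 or 3 mg/kg/day replicate 4, to 5. All lists were chosen with earlier results of these data known, so a share above that of all genes is not independent support.

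PPARA, the receptor itself, had 693, 911, 894 and 1037 at 3 mg/kg/day, against 693, 549 and 612 on vehicle. The lowest 3 mg/kg/day animal matched the highest vehicle animal to within 0.1, and the difference was 0.50 ± 0.20 (adjusted p = 0.404). RXRA, its DNA-binding partner, differed by 0.20 ± 0.18 with 0.49 from a different probe set, and NR1H3, the oxysterol receptor LXR-alpha, by 0.14 ± 0.23 with 0.53 from a different probe set. HADHA, the subunit of the mitochondrial trifunctional protein that handles long chains, had 998, 816, 557 and 1009.7 at 3 mg/kg/day and 496, 442 and 798 on vehicle. Here 3 mg/kg/day replicate 3 and vehicle replicate 3 crossed, and the difference was 0.54 ± 0.22 (adjusted p = 0.4).

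ACADVL, the dehydrogenase of very long chain acyl-CoA, differed by 0.39 ± 0.16 (adjusted p = 0.405) and ACADM, its counterpart for medium chains, by 0.35 ± 0.19 (adjusted p = 0.557), both with overlap. SLC25A20, which carries acylcarnitines into mitochondria, differed by 0.34 ± 0.26, CPT1A, which makes them, by 0.30 ± 0.39, and ACSL1, which activates fatty acids, by -0.19 ± 0.27. PDK4, which restrains pyruvate oxidation, differed by -0.08 ± 0.38, VNN1, a pantetheinase, by -0.05 ± 0.31, and PLIN2, a lipid droplet coat protein, by -0.10 ± 0.42. UCP2, a mitochondrial carrier, differed by -0.59 ± 0.56 and TXNIP, which binds thioredoxin, by -0.43 ± 0.54, where vehicle replicate 3, at 3767, was above all others. LPL, the lipoprotein lipase, differed by 0.51 ± 0.43.

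FABP1, the liver fatty acid binding protein, varied widely between animals. Its intensities were 3414, 1329.5, 362 and 929.9 at 3 mg/kg/day, against 673, 1264 and 1548 on vehicle. The highest and the lowest of these 7 values both belong to 3 mg/kg/day animals, and the difference was 0.03 ± 0.53, with a 95% interval of -1.07 to 1.13. FADS2, a desaturase of polyunsaturated fatty acids, had 14, 13.7, 25.8 and 11.9 at 3 mg/kg/day and 52.4, 35.1 and 23.5 on vehicle. All 3 mg/kg/day values were below the 39.7 of the test's minimum, which FADS2 passed through higher doses, and the difference of -0.69 ± 0.64 (95% interval -2.01 to 0.62) rests on values not shown to exceed background. EHHADH, a peroxisomal target, was measured but below that minimum, at 30.5 to 48.2 in 3 mg/kg/day animals and 14.0 to 42.3 in vehicle animals.

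**Figure D3:**
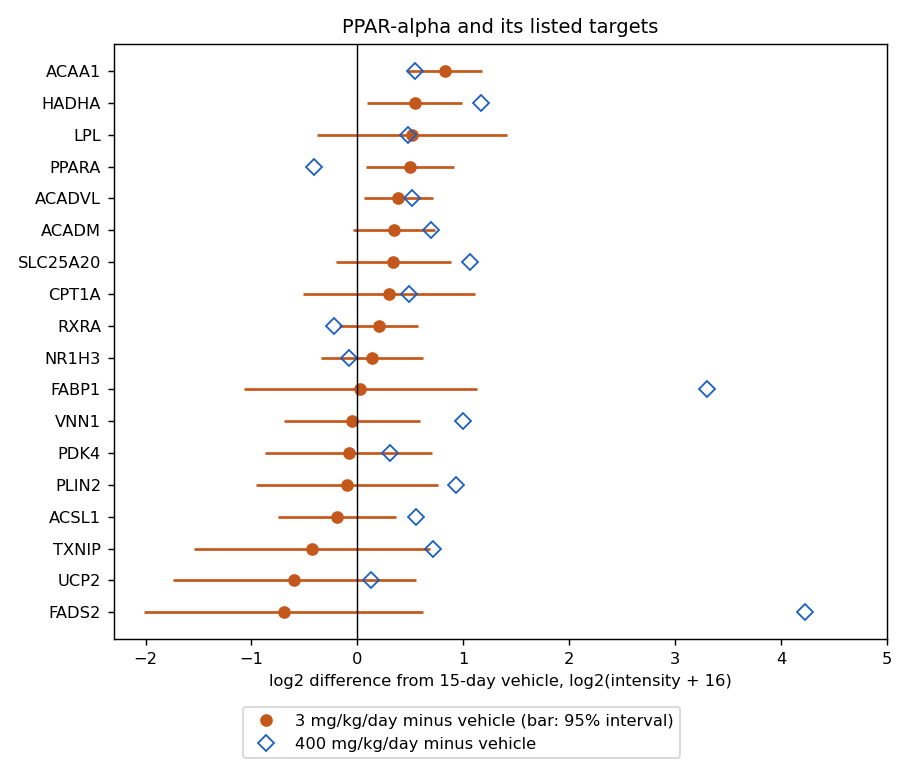
Log2 difference from the 15-day vehicle animals of 18 genes of the PPAR-alpha list, for 3 mg/kg/day (filled circles with 95% intervals) and 400 mg/kg/day (open diamonds), which share the same vehicle animals. The intervals at 3 mg/kg/day lie above 0 for ACAA1, HADHA, PPARA and ACADVL only, while FABP1 stands at 3.30 at 400 mg/kg/day. The diamond of FADS2 depends on the pseudocount, since its vehicle values are near background.

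Mitochondrial fatty acid oxidation breaks fatty acids down to acetyl-CoA. Of 20 measured genes 16 were higher at 3 mg/kg/day, with a median of 0.28, and 6 were higher and 0 lower at an unadjusted p under 0.05 (30% and 0%, against 4.91% and 5.05% over all genes). Without vehicle replicate 2 the count was 2, and without vehicle replicate 1 or 3 mg/kg/day replicate 4 it was 3. Without vehicle replicate 1 the median was 0.10, and without vehicle replicate 3 it was 0.49. By animal, the list's median relative to the vehicle mean was 0.64, 0.39, -0.02 and 0.15 at 3 mg/kg/day and -0.27, 0.05 and 0.21 on vehicle, so 3 mg/kg/day replicates 3 and 4 lay within the vehicle range. At 30, 150 and 400 mg/kg/day the list's median difference from vehicle was 0.50, 0.79 and 0.84. The list is not separate from the PPAR-alpha list. HADHA and ACADVL count in both at that p, and ACADM, CPT1A, SLC25A20 and ACSL1 are members of both.

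DECR1, a reductase needed for unsaturated fatty acids, had 1628, 1396, 1147 and 786 at 3 mg/kg/day, against 666, 796 and 694 on vehicle. Only 3 mg/kg/day replicate 4 fell within the vehicle range, and the difference was 0.73 ± 0.23 (adjusted p = 0.283). ETFDH, which passes electrons of fatty acid oxidation to the respiratory chain, had 624, 552, 298 and 537 at 3 mg/kg/day and 214, 325 and 369 on vehicle. With 3 mg/kg/day replicate 3 inside the vehicle range it differed by 0.69 ± 0.24 (adjusted p = 0.31). ECI1, an enoyl-CoA isomerase for unsaturated chains, had 245, 99.5, 227 and 249 at 3 mg/kg/day and 59.3, 30.4 and 243 on vehicle, a difference of 1.12 ± 0.42 (adjusted p = 0.362) in which vehicle replicate 3 was within the range of the treated animals. ETFB, a subunit of the electron transfer flavoprotein, differed by 0.58 ± 0.28. The lowest members were CRAT (-0.31), ACSL1 (-0.19), HADH (-0.16) and ACAT1 (-0.11), none with an unadjusted p under 0.05.

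Of 15 peroxisomal genes 3 were higher and 0 lower at an unadjusted p under 0.05 (20% and 0%, against 4.91% and 5.05% over all genes), with a median of 0.15 (0.03 without 3 mg/kg/day replicate 1 to 0.24 without vehicle replicate 3). The count higher was 2 to 4 with 1 animal left out. Beside ACAA1, which the PPAR-alpha list shares, these were ACOX2, the oxidase of branched chains and bile acid precursors, and PEX19, which brings membrane proteins to peroxisomes. ACOX2 had 481, 467, 263 and 387 at 3 mg/kg/day, against 319, 203 and 180.4 on vehicle, and 3 of 4 treated animals were above all vehicle animals (0.74 ± 0.23, adjusted p = 0.278). PEX19 differed by 0.66 ± 0.27 (adjusted p = 0.404) and HSD17B4, the bifunctional enzyme of peroxisomal oxidation, by 0.44 ± 0.23 (adjusted p = 0.525). CAT, the catalase, differed by -0.46 ± 0.36. PEX11A, which takes part in peroxisome division, differed by 0.19 ± 0.33. The ketone body enzyme BDH1 differed by 0.35 ± 0.23.

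Of 15 genes of fatty acid synthesis 9 were lower, with a median of -0.15 (-0.23 without 3 mg/kg/day replicate 1 to -0.03 without 3 mg/kg/day replicate 4), and at an unadjusted p under 0.05 there was 1 each way (6.67% each, near the background of 4.91% and 5.05%). ELOVL5, an elongase of polyunsaturated chains, had 91.8, 127, 149 and 86.5 at 3 mg/kg/day, against 169, 227 and 131 on vehicle. Only 3 mg/kg/day replicate 3 entered the vehicle range, and the difference was -0.56 ± 0.26 (adjusted p = 0.486). DGAT1, which completes triglycerides, had 737, 801, 328 and 889 at 3 mg/kg/day and 278, 398 and 326 on vehicle, a difference of 0.93 ± 0.42 (adjusted p = 0.473) with 3 mg/kg/day replicate 3 at the vehicle level. SCD, which makes monounsaturated fatty acids, had 55.7, 43, 66.6 and 38.4 at 3 mg/kg/day and 192, 40 and 125 on vehicle, and its difference of -0.84 ± 0.59 came with overlapping groups (adjusted p = 0.67). FASN, the fatty acid synthase, differed by -0.46 ± 0.60, ME1, the malic enzyme that supplies NADPH, by -0.43 ± 0.28 (-0.01 from a different probe set), and the desaturase-like FADS3 by 0.61 ± 0.32.

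Among genes of lipoproteins and lipid transport, APOB stood apart. APOB, the structural protein of VLDL and LDL, had intensities of 14699.6, 12805, 10245 and 11715 at 3 mg/kg/day, against 6543, 6737 and 5146 on vehicle. Every 3 mg/kg/day animal exceeded every vehicle animal, by 1.01 ± 0.26 (adjusted p = 0.196, 0.114 to 0.383 over 18 alternatives), and a different APOB probe set gave 0.41. It was the 1 of 15 genes with an unadjusted p under 0.05 (6.67%, near the 4.91% of all genes), and the list's median was 0.13 (0.04 without vehicle replicate 2 to 0.21 without vehicle replicate 3).

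Apolipoproteins known as targets of fibrates in humans differed by less. APOC3, an inhibitor of lipoprotein lipase, had 25634, 26402, 24139 and 26011 at 3 mg/kg/day and 29233, 21644 and 21241 on vehicle, a difference of 0.10 ± 0.18 with a 95% interval of -0.27 to 0.48. APOA1, the main protein of HDL, differed by 0.06 ± 0.19 (95% interval -0.32 to 0.45). Quantile normalization turned both signs, to -0.039 for APOC3 and -0.12 for APOA1. APOA4 had 417, 1020.4, 45.8 and 979.6 at 3 mg/kg/day and 221, 405 and 358 on vehicle, a difference of 0.29 ± 0.71 in which the treated animals spanned the vehicle range on both sides. LCAT, which esterifies cholesterol on HDL, differed by 0.39 ± 0.19, PON3, a lactonase carried on HDL, by 0.42 ± 0.25, PLTP, a phospholipid transfer protein, by 0.13 ± 0.17, and CETP, its cholesteryl ester counterpart, by 0.17 ± 0.32. APOE, a ligand of lipoprotein receptors, differed by -0.46 ± 0.29, APOC1 by -0.30 ± 0.22, APOM by -0.24 ± 0.30, APOH by -0.65 ± 0.55, the HDL receptor SCARB1 by -0.07 ± 0.19 and the cholesterol exporter ABCA1 by 0.24 ± 0.28. Different probe sets gave -0.28 for ABCA1, and -0.42 and -0.14 for APOM.

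In cholesterol synthesis 13 of 16 genes were higher, with a median of 0.21 (0.14 without vehicle replicate 2 to 0.36 without vehicle replicate 1), and 1 had an unadjusted p under 0.05 (6.25%). That was NSDHL, a sterol dehydrogenase, with 459, 439, 288 and 659 at 3 mg/kg/day, against 284, 179 and 307 on vehicle. Only 3 mg/kg/day replicate 3 entered the vehicle range (0.78 ± 0.21, adjusted p = 0.213). SREBF2, which drives the pathway, differed by 0.54 ± 0.37 without overlap, SQLE, a rate-limiting step, by 0.75 ± 0.50, and INSIG1, which holds the pathway back, by -0.68 ± 0.41.

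Of 10 bile acid genes 1 was higher and 2 were lower at an unadjusted p under 0.05 (10% and 20%, against 4.91% and 5.05% over all genes). Without vehicle replicate 1 there were 0 either way. ABCB4, which exports phospholipid into bile, had 769, 918, 546 and 738 at 3 mg/kg/day, against 386, 473 and 499 on vehicle. It differed by 0.68 ± 0.26 without overlap (adjusted p = 0.362). NR0B2, the repressor SHP, differed by -0.77 ± 0.36 (adjusted p = 0.486; a different probe set -0.71), and CYP27A1, a sterol 27-hydroxylase, by -0.77 ± 0.36 (adjusted p = 0.489), with 3 mg/kg/day replicate 4 the lowest at 207. The importer SLCO1B1 differed by 0.43 ± 0.23. CYP7A1, the rate-limiting enzyme of bile acid synthesis, was below the test's minimum, at 4.1 to 103.4 in 3 mg/kg/day animals and 2.1 to 38.6 in vehicle animals.

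Of 53 respiratory chain and ATP synthase genes 9 were higher and 2 lower at an unadjusted p under 0.05 (17% and 3.77%, against 4.91% and 5.05% over all genes), with a median of 0.11 (0.04 without 3 mg/kg/day replicate 2 to 0.16 without 3 mg/kg/day replicate 3). The count higher was 5 without 3 mg/kg/day replicate 1. NDUFV2, a subunit of complex I, had 932, 693, 587 and 1101 at 3 mg/kg/day and 569.7, 528 and 493 on vehicle. Its groups were apart by 0.59 ± 0.17 (adjusted p = 0.238). ATP5MC3 and ATP5MC2 encode the same mature ring protein of ATP synthase from separate genes, and their probe sets went opposite ways, by 0.63 ± 0.23 (adjusted p = 0.329) and -1.64 ± 0.53 (adjusted p = 0.295). ATP5MC2 had 19.7, 22.3, 23.3 and 17.3 at 3 mg/kg/day, all under the test's minimum of 39.7, and 79, 85.9 and 138 on vehicle. In the citric acid cycle and pyruvate entry, 1 of 16 had an unadjusted p under 0.05 (6.25%), IDH3B (0.64 ± 0.25, with -0.85 and 0.48 from different probe sets). PDHX, a component of the pyruvate dehydrogenase complex, differed by 0.40 ± 0.19, its kinase PDK2 by -0.30 ± 0.21 (with 0.61 from a different probe set) and IDH2 by -0.36 ± 0.26.

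Sugar metabolism had 1 gene each way of 27 at an unadjusted p under 0.05 (3.7% each), with a median of -0.02 (-0.07 without 3 mg/kg/day replicate 1 to 0.08 without 3 mg/kg/day replicate 3). PFKFB3, which makes the activator of phosphofructokinase, differed by 1.44 ± 0.62 (adjusted p = 0.454), but a different probe set of it gave 0.07. PFKM, the muscle form of phosphofructokinase, differed by -1.21 ± 0.53 at low intensity. PFKFB1, the liver counterpart of PFKFB3, differed by 0.67 ± 0.35 and ALDOA, an aldolase, by -0.40 ± 0.26.

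Chaperones, which fold proteins, and genes of the stress response of the endoplasmic reticulum (ER) were mostly higher. Of 24 measured genes 22 were higher and 2 lower at 3 mg/kg/day, with a median of 0.42. At an unadjusted p under 0.05, 7 were higher and 0 lower (29.2% and 0%, against 4.91% and 5.05% over all genes). By animal, the list's median relative to the vehicle mean was 0.69, 0.44, 0.08 and 0.82 at 3 mg/kg/day, against 0.06, 0.03 and 0.04 on vehicle. All 4 treated animals were above the vehicle animals, replicate 3 by little. The subtracted mean comes from these same vehicle animals, which draws their medians toward 0 and makes a gap easier to reach. The summed intensity of the list overlapped, at 19175 to 35849 in 3 mg/kg/day animals and 20200 to 21084 in vehicle animals. The median of the differences stayed between 0.37 and 0.54 with any animal left out. The count at that p was 3 without 3 mg/kg/day replicate 1, and 4 without 3 mg/kg/day replicate 2 or 4 or vehicle replicate 2. At 30, 150 and 400 mg/kg/day the list's median difference from vehicle was 0.33, 0.35 and 0.16.

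HSPE1, the cochaperonin of mitochondria, had 796, 647, 440.3 and 666 at 3 mg/kg/day, against 164, 321 and 466 on vehicle. Only 3 mg/kg/day replicate 3 was within the vehicle range, and the difference was 1.05 ± 0.29 (adjusted p = 0.213). HSPA9, the mitochondrial form of HSP70, had 197, 183, 184 and 229 at 3 mg/kg/day and 131, 113 and 132 on vehicle, apart by 0.60 ± 0.22 (adjusted p = 0.349). ATF4, a transcription factor of the stress response, had 361, 275, 483 and 273 at 3 mg/kg/day and 206, 225 and 221 on vehicle. It was also apart, by 0.60 ± 0.25 (adjusted p = 0.421). HSP90AB1, a cytosolic chaperone, differed by 0.57 ± 0.23 (0.23 to 0.39 from 3 different probe sets), HSPA5, the main chaperone of the ER lumen, by 0.91 ± 0.41, ATF6, a sensor of ER stress, by 0.99 ± 0.47, and DNAJA1, a partner of HSP70, by 0.90 ± 0.43. The 2 lower members were P4HB (-0.29), a disulfide isomerase, and CALR (-0.18), a calcium-binding chaperone.

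Ribosomal protein genes had 10 higher and 3 lower of 45 at an unadjusted p under 0.05 (22.2% and 6.67%, against 4.91% and 5.05% over all genes). Their median was 0.14 (0.09 without vehicle replicate 3 to 0.23 without vehicle replicate 1). The count higher was 5 without vehicle replicate 2, and 6 without vehicle replicate 3. RPL9 had 5126, 3992, 3596 and 4049 at 3 mg/kg/day and 3423, 2601 and 2745 on vehicle. It differed by 0.52 ± 0.15, RPL7 by 0.46 ± 0.15 and RPS12 by 0.47 ± 0.16, while RPL29 differed by -0.52 ± 0.16. Of these 4, RPS12 alone overlapped between the groups. Processed copies of ribosomal protein genes are common in primate genomes, and signal from them was not separated. In the proteasome 25 of 34 genes were higher with a median of 0.10 (0.08 without 3 mg/kg/day replicate 4 to 0.17 without 3 mg/kg/day replicate 3), and beside PSMA3, PSMA4 (0.56 ± 0.20) and PSMB1 (0.45 ± 0.20) had an unadjusted p under 0.05 (8.82% higher and 0% lower). Without 3 mg/kg/day replicate 4 the count higher was 1. A different PSMA4 probe set gave 0.05. PSME1, a subunit of the interferon-inducible activator, differed by -0.34 ± 0.18.

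In amino acid and urea metabolism 20 of 27 genes were higher at 3 mg/kg/day, with a median of 0.26 that stayed between 0.19 and 0.28 with any animal left out. At an unadjusted p under 0.05, 4 were higher and 0 lower (14.8% and 0%, against 4.91% and 5.05% over all genes). GPT, the alanine aminotransferase, had 1469, 1352, 1116 and 1682 at 3 mg/kg/day, against 1022, 878 and 982 on vehicle. It was apart by 0.53 ± 0.17 (adjusted p = 0.297). HPD, an enzyme of tyrosine breakdown, had 3574, 4202, 4040 and 3986 at 3 mg/kg/day and 3259.8, 2165 and 2407 on vehicle, apart by 0.61 ± 0.24 (adjusted p = 0.387). MAT1A, which makes S-adenosylmethionine, was apart by 0.42 ± 0.17, and AHCY, which removes its product, overlapped with a difference of 0.48 ± 0.22. The urea cycle gene CPS1 differed by 0.07 ± 0.32 and OTC by 0.02 ± 0.21. At 30, 150 and 400 mg/kg/day the list's median difference from vehicle was 0.19, 0.20 and -0.20.

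Among secreted liver proteins, complement and coagulation showed little difference as lists, while other plasma proteins were more often higher by a small median. Complement genes had a median of 0.02 (-0.14 without vehicle replicate 1 to 0.15 without 3 mg/kg/day replicate 4) over 20, with 0 at an unadjusted p under 0.05. SERPING1, which inhibits complement C1, differed by -0.29 ± 0.14, and C9, part of the lytic complex, by -0.57 ± 0.34. Coagulation genes had a median of -0.01 (-0.08 without 3 mg/kg/day replicate 3 to 0.14 without 3 mg/kg/day replicate 4) over 29, and 1 had an unadjusted p under 0.05 (3.45%), SERPINF2, which inhibits plasmin (0.37 ± 0.15). F2, prothrombin, differed by 0.28 ± 0.16 without overlap, F5 by 0.50 ± 0.27 and the fibrinogen chain FGB by -0.53 ± 0.30. Among 27 other plasma and acute phase proteins 20 were higher and 7 lower. Their median was 0.16 (0.12 without 3 mg/kg/day replicate 1 to 0.26 without 3 mg/kg/day replicate 4), with 1 gene each way at an unadjusted p under 0.05 (3.7% each). CPN1, a plasma carboxypeptidase, had 553, 258, 367 and 516 at 3 mg/kg/day and 143, 230.3 and 270.5 on vehicle, overlapping through 3 mg/kg/day replicate 2 (0.91 ± 0.23, adjusted p = 0.196). SERPINA6, which carries cortisol, differed by -0.64 ± 0.21 (adjusted p = 0.297), SERPINA4 by 0.47 ± 0.23 and TTR, which carries thyroid hormone and retinol, by -0.45 ± 0.22.

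Of drug metabolism genes, few passed an unadjusted p of 0.05. The median was -0.17 (-0.24 without 3 mg/kg/day replicate 3 to -0.02 without vehicle replicate 1) over 12 cytochromes P450 and -0.15 (-0.22 without vehicle replicate 3 to -0.06 without 3 mg/kg/day replicate 4) over 15 conjugating enzymes, with 1 gene lower and 0 higher at an unadjusted p under 0.05 in each (8.33% and 6.67% lower, near the 5.05% of all genes). Without 3 mg/kg/day replicate 3 the count of conjugating enzymes lower was 4. CYP4F12 differed by -0.44 ± 0.21 and TPMT, a thiopurine methyltransferase, by -0.54 ± 0.18, of which TPMT did not overlap. CYP2C8 differed by 0.49 ± 0.25 without overlap (a different probe set overlapped at 0.24), CYP3A5 by -0.53 ± 0.41 and CYP1A1 by -0.87 ± 0.68, with 0.61 and -0.36 from different CYP1A1 probe sets. UGT2B7, whose probe set can read related genes, differed by -0.63 ± 0.34, SULT2A1 by -0.96 ± 0.54 and GSTP1 by -0.43 ± 0.26 without overlap, while different probe sets gave -0.29 for UGT2B7 and, with overlap, -0.18 for GSTP1.

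The oxidative stress and metal list had a median of 0.09 (0.02 without 3 mg/kg/day replicate 4 to 0.28 without 3 mg/kg/day replicate 1) over 26, and 1 gene had an unadjusted p under 0.05 (3.85%), PRDX4, a peroxiredoxin of the ER, which did not overlap (0.34 ± 0.15). AKR1B10, an aldo-keto reductase, had 77.3, 75.9, 67.8 and 47.1 at 3 mg/kg/day, against 22.4, 41.3 and 36.5 on vehicle. The groups did not overlap at these low intensities, with a difference of 0.75 ± 0.40 (adjusted p = 0.553). GPX1, a glutathione peroxidase, differed by -0.30 ± 0.16 and the metallothionein probe set MT1H, which can read other family members, by 0.34 ± 0.19. Of 14 aldehyde and alcohol dehydrogenases 0 had an unadjusted p under 0.05, with ADH1A at 0.31 ± 0.17, ALDH6A1 at -0.46 ± 0.26, ALDH1L1 at 0.36 ± 0.26 and ALDH7A1 at 0.43 ± 0.31.

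Immediate early genes, which respond quickly to hormones and stress, were mostly lower in 3 mg/kg/day animals. Of 29 measured, 21 were lower, with a median of -0.33. At an unadjusted p under 0.05, 5 were lower and 0 higher (17.2% and 0%, against 5.05% and 4.91% over all genes). The 5 were DUSP1, KLF6, CEBPD, MYC and ZFP36. The summed intensity of the list was 13925 to 15981 in 3 mg/kg/day animals and 19397 to 21022 in vehicle animals, without overlap. The median kept its sign with any animal left out (-0.42 to -0.33), and the count was 3 without vehicle replicate 2 or 3. At 30, 150 and 400 mg/kg/day, against the same vehicle animals, the list's median difference was -0.21, -0.27 and -0.35.

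KLF6, a zinc finger transcription factor, had 210.4, 231, 199 and 198 at 3 mg/kg/day, against 322, 268 and 479.8 on vehicle. The 4 treated animals lay close together below the vehicle animals (-0.69 ± 0.26, adjusted p = 0.36). DUSP1, a phosphatase that ends MAP kinase signals, had 423, 800.2, 1392 and 623 at 3 mg/kg/day and 1729, 1249 and 1436 on vehicle. Replicate 3 at 3 mg/kg/day was within the vehicle range (-0.97 ± 0.36, adjusted p = 0.348). MYC differed by -0.49 ± 0.20, with -0.57, -0.08 and -0.73 from its different probe sets, ZFP36, which destabilises cytokine mRNA, by -0.43 ± 0.19 and CEBPB, a liver transcription factor, by -0.42 ± 0.22.

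Lists of cell growth showed few genes past an unadjusted p of 0.05. In the cell cycle list 0 of 21 were higher and 1 lower (4.76%), PLK1, a mitotic kinase, with 74, 67.6, 76.9 and 83 at 3 mg/kg/day and 228, 152 and 137 on vehicle. PLK1 was apart by -1.01 ± 0.44, as were CDK2 by -0.20 ± 0.14 and CDKN1B by -0.44 ± 0.28, while CCND3 overlapped (-0.65 ± 0.34). A different CDK2 probe set gave 0.62. In the apoptosis and DNA damage list 2 of 22 were lower and 0 higher (9.09% and 0%, against 5.05% and 4.91% over all genes), and 1 was lower without vehicle replicate 1. They were APAF1, the core of the apoptosome (-1.36 ± 0.40, without overlap), and BAD (-0.86 ± 0.39). CASP9 differed by 0.72 ± 0.35 and ERCC1 by -0.49 ± 0.25, while different probe sets gave -0.34 for CASP9 and -1.17 and -0.12 for ERCC1. In the growth hormone and IGF list 1 of 17 had an unadjusted p under 0.05 (5.88%), STAT5B, which carries the growth hormone signal (1.07 ± 0.45), while IGFBP1 differed by -0.73 ± 0.45, IRS2 by -0.47 ± 0.30 and JAK2 by 0.67 ± 0.49. Among 19 nuclear receptors and hepatocyte factors PPARA was higher and NR0B2 lower at that p (5.26% each), and RORA differed by -0.62 ± 0.39.

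Genes of antigen presentation and interferon response were mostly lower in 3 mg/kg/day animals. Of 27 measured, 20 were lower and 7 higher, with a median of -0.32. At an unadjusted p under 0.05, 7 were lower and 2 higher (25.9% and 7.41%, against 5.05% and 4.91% over all genes). By animal, the list's median relative to the vehicle mean was -0.53, -0.23, -0.20 and -0.24 at 3 mg/kg/day and -0.14, 0.08 and 0.07 on vehicle. Replicate 1 at 3 mg/kg/day was the lowest, and without it the median of the differences was -0.15, and it was -0.20 without vehicle replicate 3. The subtracted mean draws the medians of the vehicle animals toward 0. The summed intensity of the list overlapped, at 10956 to 13228 in 3 mg/kg/day animals and 11822 to 17071 in vehicle animals. The count lower was 3 without vehicle replicate 2, and the count higher was 0 without vehicle replicate 1 or 3 mg/kg/day replicate 3. At 30, 150 and 400 mg/kg/day, against the same vehicle animals, the list's median difference was -0.28, -0.14 and -0.11.

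IFI6, an interferon-induced mitochondrial protein, had 69, 25.7, 32.8 and 163 at 3 mg/kg/day, against 207, 642 and 163 on vehicle. The highest treated animal lay just under the lowest vehicle animal, and the difference was -2.0 ± 0.66 (adjusted p = 0.297). ISG15, a ubiquitin-like interferon product, had 143, 182, 194 and 223 at 3 mg/kg/day and 326, 408 and 350.8 on vehicle. It was apart by -0.92 ± 0.31 (adjusted p = 0.301), with -0.71 from a different probe set. OAS2, an antiviral synthetase, was apart by -0.75 ± 0.25 and TAPBP, which loads peptides on MHC class I, by -0.51 ± 0.19. CD74, the invariant chain of MHC class II, differed by -0.60 ± 0.24 and B2M, the light chain of class I, by -0.57 ± 0.27. The 2 higher genes were HLA-DQB1 (0.59) and IFIT2 (0.66), and probe sets for human MHC genes can read several monkey genes.

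Markers of blood and immune cells were read in the same animals. In these whole-tissue samples fewer cells of a type and less RNA per cell cannot be told apart. The 5 T and NK cell markers measured, of 10, had a median of -0.47 and a summed intensity of 413 to 578 in 3 mg/kg/day animals, against 624 to 715 in vehicle animals, without overlap. CD8A, which marks cytotoxic T cells, had 20.2, 48.8, 20.6 and 68.6 at 3 mg/kg/day and 97.2, 122 and 66.7 on vehicle (-1.07 ± 0.34, adjusted p = 0.283). TRBC1, a T cell receptor chain, was apart by -0.47 ± 0.26 (a different probe set overlapped at -0.76), NKG7 overlapped with -1.0 ± 0.60, and CD2 went the other way (0.81 ± 0.47).

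All 3 B and plasma cell markers measured, of 7, were lower, by a median of -0.96 (-0.59 without vehicle replicate 1), with summed intensities of 228 to 657 at 3 mg/kg/day and 445 to 657 on vehicle. IGKC, the kappa light chain, was apart by -1.19 ± 0.35 (adjusted p = 0.229), CD79A differed by -0.96 ± 0.39 and IGHM by -0.53 ± 0.62, with -0.17 to -1.35 from 3 different probe sets. All 5 neutrophil markers measured, of 7, were lower by a median of -0.55 (-0.29 without 3 mg/kg/day replicate 3), with 0 at an unadjusted p under 0.05 and summed intensities of 372 to 568 at 3 mg/kg/day and 465 to 684 on vehicle. They included CXCR2 (-0.46 ± 0.24, but 0.36 from a different probe set), CSF3R (-0.70 ± 0.50), S100A8 (-0.55 ± 0.54) and FCGR3B (-0.55 ± 0.69). Red cell markers, 4 measured of 7, summed to 1494 to 1935 in 3 mg/kg/day animals and 2024 to 3089 in vehicle animals without overlap, with HBB at -0.70 ± 0.41 (a different probe set -1.57, without overlap), HBD at -0.42 ± 0.26, ALAS2 at -0.34 ± 0.17 and SLC4A1 at 0.55 ± 0.61. At 30, 150 and 400 mg/kg/day, against the same vehicle animals, the marker medians were also negative. They were -0.40, -0.30 and -0.08 for T and NK cells, and -0.88, -0.35 and -0.53 for B and plasma cells. For neutrophils they were -0.21, -0.29 and -0.40, and for red cells -0.19, -0.08 and -0.12. At 3 mg/kg/day some values of CD8A and NKG7 were under the test's minimum of 39.7. The part of the blood and immune cell markers in the lower interferon and immediate early lists was not tested.

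Resident cells of the liver showed no shared direction. Kupffer cell markers had a median of -0.03 (-0.14 without 3 mg/kg/day replicate 4 to 0.07 without 3 mg/kg/day replicate 1) over 8, with MARCO, a scavenger receptor, at 0.88 ± 0.50, CD5L at -0.64 ± 0.38 without overlap, VSIG4 at -0.33 ± 0.28 and CSF1R at 0.27 ± 0.23. Endothelial markers had a median of -0.07 (-0.26 without vehicle replicate 1 to 0.08 without 3 mg/kg/day replicate 4) over 7, and 1 was lower at an unadjusted p under 0.05 (14.3%), PECAM1, an adhesion protein, at -1.17 ± 0.38, with 0.18 and -0.67 from different probe sets. FCN3 was at -0.53 ± 0.26, FCN2 at -0.41 ± 0.33 and VWF at 0.58 ± 0.41. Stellate cell and fibroblast markers had a median of 0.04 (-0.10 without vehicle replicate 3 to 0.16 without 3 mg/kg/day replicate 3) over 8, with 2 lower at that p (25%). COL1A1, a chain of type I collagen, had 75.9, 60.2, 63.9 and 121 at 3 mg/kg/day, against 163, 229.5 and 209.8 on vehicle. It was apart by -1.20 ± 0.39 (adjusted p = 0.295), but a different probe set gave -0.25. TIMP1, an inhibitor of matrix proteases, was apart by -1.43 ± 0.42 (adjusted p = 0.238), while SPARC was at 0.40 ± 0.25 and VIM at -0.22 ± 0.25. Among cholangiocyte markers, 3 measured of 7, KRT7 was at -0.55 ± 0.31, SOX9 at 0.24 ± 0.37 and SPP1 at -0.13 ± 0.50.

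The control genes also differed between animals. ACTB, cytoplasmic actin, had 2614, 2669, 2851 and 3088 at 3 mg/kg/day, against 1259, 1749 and 2349 on vehicle. It was apart by 0.69 ± 0.21 (adjusted p = 0.243). GAPDH, a glycolytic enzyme, overlapped, with -0.36 ± 0.21 and -0.08 from a different probe set. The scaling of the arrays moved the median of all probe sets by little, from -0.02 as deposited to 0.00 after quantile normalization and 0.02 after scaling to a common median.

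**Figure D4:**
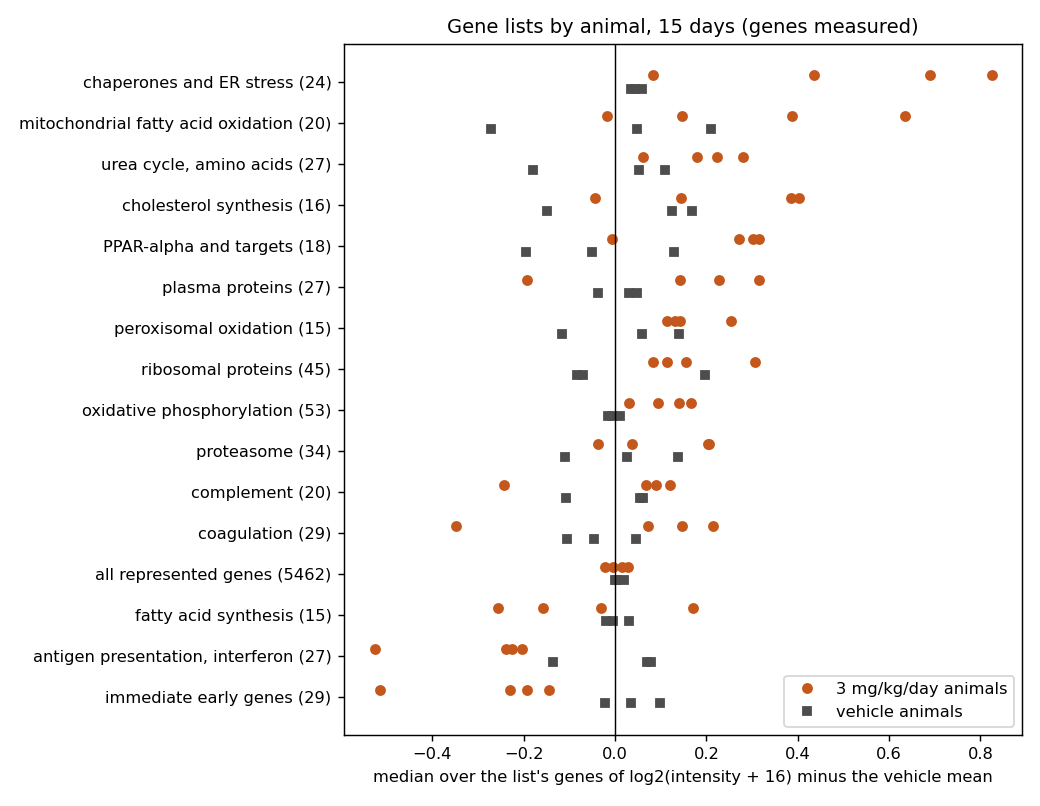
Each point is the median over a list's genes of log2(intensity + 16) in 1 animal minus the vehicle mean, for 3 mg/kg/day animals (circles, upper of each pair) and vehicle animals (squares). That mean comes from the same vehicle animals, which draws the squares toward 0. The 4 circles of chaperones and ER stress (0.08 to 0.82) lie above the squares (0.03 to 0.06), and those of immediate early genes and of antigen presentation and interferon lie below them.

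The direct comparison of 3 with 400 mg/kg/day asks where the lowest dose differs from the highest, with no vehicle animal in the difference. Here 315 of 7535 probe sets were called (4.18%), 170 higher at 3 mg/kg/day (2.26%) and 145 lower (1.92%), although scaling the arrays to a common median turned this split to 118 higher and 159 lower of 277. They represent 229 genes of 5462 (4.19%), 126 higher (2.31%) and 103 lower (1.89%).

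Among the genes lowest at 3 relative to 400 mg/kg/day, FABP1 had 3414, 1329.5, 362 and 929.9 at 3 mg/kg/day, against 12948, 12258, 8308 and 10953 at 400 mg/kg/day. No animal overlapped, and FABP1 was lower by -3.28 ± 0.49 (adjusted p = 0.00024). FADS2 had 14, 13.7, 25.8 and 11.9 at 3 mg/kg/day and 1112, 1052, 1075 and 647 at 400 mg/kg/day (-4.92 ± 0.59, adjusted p = 1.91e-05), a difference whose size depends on the pseudocount since the 3 mg/kg/day values are near background. SCD had 55.7, 43, 66.6 and 38.4 at 3 mg/kg/day and 592, 1557, 733 and 1481 at 400 mg/kg/day. It was apart by -3.95 ± 0.54 (adjusted p = 8.5e-05), AKR1B10 by -2.85 ± 0.37 (adjusted p = 4.82e-05), ELOVL5 by -2.19 ± 0.24 (adjusted p = 8.28e-06) and ME1 by -1.68 ± 0.26 (adjusted p = 0.000317). PDZK1IP1 was called at -2.49 ± 0.65 with overlapping animals, and that call was lost without a variance trend (adjusted p = 0.0518) or without 3 mg/kg/day replicate 3 or 4 or 400 mg/kg/day replicate 2, 3 or 4 (adjusted p = 0.0638 to 0.109).

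Among the genes highest at 3 relative to 400 mg/kg/day, CYP2E1, which oxidises ethanol and other small molecules, had 22342, 17476, 12968 and 16323 at 3 mg/kg/day, against 244, 2036, 1545 and 2092 at 400 mg/kg/day. These groups were far apart (3.88 ± 0.45, adjusted p = 1.48e-05), and a different probe set gave 3.00. PZP, a protease inhibitor, had 2134, 1185, 1982 and 737 at 3 mg/kg/day and 93.7, 285, 98 and 295 at 400 mg/kg/day (2.92 ± 0.47, adjusted p = 0.000489), without overlap. SPP2, a secreted phosphoprotein, was apart by 2.68 ± 0.34 and CFHR4, related to complement factor H, by 2.57 ± 0.47. APOA4 was called at 2.83 ± 0.66 (adjusted p = 0.0128) although 3 mg/kg/day replicate 3 overlapped the 400 mg/kg/day animals, and the call was lost in the fit of these groups alone (adjusted p = 0.0661) and without 3 mg/kg/day replicate 2 or 4 or 400 mg/kg/day replicate 1 (adjusted p = 0.0531 to 0.0594).

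Lists of at least 15 measured genes with at least 10% of them called one way are given, beside 1.89% lower and 2.31% higher over all genes. Lower at 3 than at 400 mg/kg/day were 6 of 20 in mitochondrial fatty acid oxidation and 7 of 34 in the proteasome, with 0 higher in both. Also lower were 5 of 15 in fatty acid synthesis with 1 higher, and 6 of 26 in oxidative stress with 3 higher. In the list of PPAR-alpha and its targets 3 of 18 were lower, and the 1 higher was PPARA itself. FADS2 is a call in both the synthesis and the PPAR-alpha list. It passed the test's minimum through higher doses, so its call adds no support to either count. Higher were 7 of 29 in coagulation, 5 of 20 in complement and 3 of 17 in the growth hormone and IGF list, with 0 lower in these, 9 of 27 among plasma proteins with 1 lower, 5 of 45 ribosomal protein genes with 2 lower, and 4 of 15 in lipid transport with 1 lower. Of genes already described, PPARA was higher at 3 mg/kg/day by 0.91 ± 0.19 (adjusted p = 0.00499), with 400 mg/kg/day animals at 479.6, 421, 524 and 419. APOB was higher by 1.34 ± 0.24 (adjusted p = 0.00151) and SDHA by 1.04 ± 0.15 (adjusted p = 0.000196), while PSMA3 (0.37 ± 0.16) and ACAA1 (0.28 ± 0.16) were not called. CFB, complement factor B, was higher by 1.05 ± 0.14 (adjusted p = 6.9e-05), and C8B by 1.69 ± 0.23 (adjusted p = 8.5e-05).

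Set side by side against the shared vehicle animals at 3, 30, 150 and 400 mg/kg/day, FABP1 differed by 0.03, 0.97, 2.33 and 3.30, SCD by -0.84, 0.43, 1.33 and 3.11, and CYP2E1 by 0.32, 0.45, -1.0 and -3.56. In the same order ACAA1 differed by 0.82, 0.61, 1.03 and 0.54, PSMA3 by 0.95, 0.66, 0.87 and 0.58, SDHA by 0.91, 0.78, 0.45 and -0.13, and APOB by 1.01, 0.59, 0.17 and -0.33. PPARA differed by 0.50, -0.24, 0.46 and -0.41, without a steady order by dose. The differences of ACAA1 and PSMA3 were between 0.54 and 1.03 at the 4 doses, whereas those of SDHA and APOB were largest at 3 mg/kg/day and below 0 at 400 mg/kg/day. Since the doses share their vehicle animals, a low vehicle value raises all 4 differences of a gene at once.

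**Figure D5:**
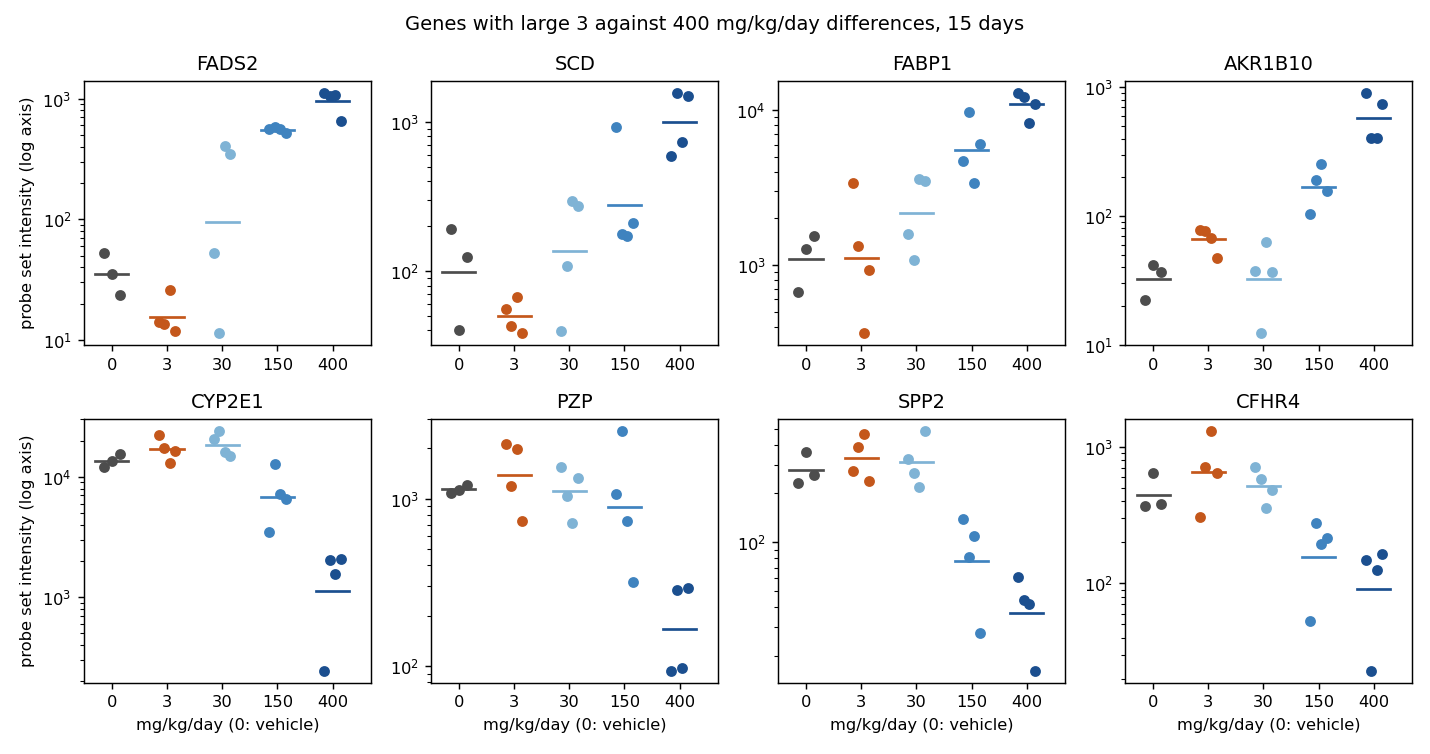
Probe set intensity on a log axis in each 15-day animal by dose (vehicle as 0, then 3, 30, 150 and 400 mg/kg/day), with a line at the mean of the log values, for 8 genes with large differences between 3 and 400 mg/kg/day. At 3 mg/kg/day the animals overlap the vehicle animals for all but AKR1B10, while those at 400 mg/kg/day are separate from 3 mg/kg/day for all 8.

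Against the next dose, 30 mg/kg/day, 1 of 7535 probe sets was called (0.0133%), for KLF11, a zinc finger transcription factor. It had 159, 128, 186 and 207 at 3 mg/kg/day, against 24.4, 42.3, 32 and 58.7 at 30 mg/kg/day. KLF11 was apart by 1.77 ± 0.29 (adjusted p = 0.0311), with vehicle animals at 209, 214 and 257. A different KLF11 probe set gave 0.23. Against vehicle the probe sets went opposite ways, both without overlap. The different one was higher at 3 mg/kg/day by 0.97, with 105.2, 140.8, 92.3 and 106.5 against 23.2, 91.5 and 47.7 on vehicle. The call held in 11 of 19 alternative settings (adjusted p = 0.014 to 0.194). At an unadjusted p under 0.05 there were 562 (7.46%), 268 higher (3.56%) and 294 lower (3.90%). In the PPAR-alpha list, 3 minus 30 mg/kg/day was -0.94 ± 0.49 for FABP1 and 0.74 ± 0.19 for PPARA, neither of them called.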

How the data were processed

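Liver RNA of 23 animals was measured on an array of 12625 probe sets, 1 animal per array. Intensities were deposited by the authors after MAS5 processing, per the submitters' processing notes, and are linear and scaled to a common trimmed mean. Detection calls were not used here. Array number limits the precision.

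Differences were fitted to log2(intensity + 16) with limma 3.58.1 in R 4.3.3, as a mean per group of dose and day over all 23 arrays, with empirical Bayes and a variance trend (two-sided, Benjamini-Hochberg). The 67 control probe sets and those under the 40th percentile of mean log2 value were left out. A gene stands for its brightest tested probe set that names it alone: 10961 probe sets name 1 human gene, 545 several and 1119 none.

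The text names the 8 genes of smallest p each way, up to 4 of smallest p in each list, all measured PPAR-alpha, lipid transport and control genes, and up to 5 called genes each way against 30 and 400 mg/kg/day. Others are named for their role or to account for a count, after their values were seen. The members and lists were chosen with earlier results of these data known. The fit was tested on simulated data. Replicate numbers did not pair the animals: same-numbered deviations correlated by -0.06 to 0.07 over 11 pairs. Alternatives changed the pseudocount, minimum, scaling, variance model, array weights, replicate block and arrays fitted, or left out 1 animal.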

Additional observations from a re-analysis of the deposited data

Results flagged for a closer look

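In 5 of the 184 named genes 1 of the 4 animals at 3 mg/kg/day lay apart from the others, by a gap over range (Dixon's ratio) above the critical value of 0.829. Chance alone flags about 1 in 20 such groups. ECI1 had its lowest 3 mg/kg/day animal at 99.5, beside 227 to 249 in the others (ratio 0.8965). GPX1 had its highest at 4624, beside 3149 to 3295 (ratio 0.8823), and ALDH1L1 at 6818, beside 5421 to 5573 (ratio 0.8792). STAT5B had its lowest at 44.5, beside 106 to 120.0 (ratio 0.8699). NKG7 had its highest at 59.7, beside 28.6 to 32.7 (ratio 0.8338). The 5 genes involve replicates 1 to 4 at 3 mg/kg/day and not a single animal.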

How the results depend on the processing

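Between 3 mg/kg/day and vehicle the count of called probe sets was 0, but 4 with the minimum at the 60th percentile, 3 with array weights and 0 to 2 with 1 animal left out, while 582 to 1070 had an unadjusted p under 0.05. Between 3 and 30 mg/kg/day it was 1, but 0 with array weights and 0 to 2 with 1 animal left out. Between 3 and 400 mg/kg/day it was 315, and 223 to 282 with 1 animal left out. With the replicate number as a block these counts were 0, 0 and 322, and no pairing of the animals was found. Of 195 gene results, 3437 recomputed values kept direction and side of the threshold, 18 lost and 10 gained a call, and 32 turned sign. Under quantile normalization FABP1 became -0.040, APOC3 -0.039 and APOA1 -0.12, under array weights PDK4 became 0.019 and FABP1 -0.059, and with the replicate block FABP1 became -0.020. With 1 animal left out the difference ranged from -0.51 to 0.55 for FABP1, -0.22 to 0.63 for CPT1A, -0.40 to 0.15 for PDK4, -0.57 to 0.36 for PLIN2, -0.21 to 0.24 for VNN1, -0.45 to 0.062 for ACSL1 and -0.84 to 0.23 for TXNIP. It ranged from -0.16 to 1.19 for APOA4, -0.048 to 0.25 for APOA1, -0.0096 to 0.21 for PLTP, -0.039 to 0.30 for CETP, -0.20 to 0.0082 for SCARB1, -0.65 to 0.017 for IDH2, -0.99 to 0.035 for PDZK1IP1 and -0.38 to 0.10 for SPP1. Where a list had 1 gene at an unadjusted p under 0.05 one way, that count was between 0 and 4 with 1 animal left out. The cause of these changes was not tested beyond the fewer animals or probe sets that the settings leave. Group sizes of 4 and 3, and human probes on monkey RNA, limit what could be called.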
